A study of Mus musculus with 18 samples.

Results

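Scavenger receptors take up modified lipoproteins, microbes and debris of dying cells, and a macrophage that takes in more lipoprotein than it can release stores the lipid in droplets. The genes described here are 10 genes of that route, taken as the rows of the count table with the symbols Marco, Msr1, Cd36, Scarb1, Olr1, Stab1, Lpl, Fabp4, Fabp5 and Plin2. They are 10 of 16314 genes in the table, and all 10 passed the filter on low counts that left 12021 genes for testing. The class A receptors Marco and Msr1 carry collagen-like stalks and bind bacteria and acetylated or oxidized low-density lipoprotein. The class B receptors Cd36 and Scarb1 take up oxidized lipoprotein and fatty acids, and cholesterol esters of high-density lipoprotein, respectively. Olr1 encodes the lectin-like receptor LOX-1, and Stab1 encodes stabilin-1, which clears altered matrix proteins and cell debris. Lpl, the lipoprotein lipase, frees fatty acids from triglyceride-rich lipoproteins, Fabp4 and Fabp5 bind fatty acids in the cytoplasm, and Plin2 coats the lipid droplet. Fabp4 and Cd36 are textbook targets of the nuclear receptor PPARγ, which interleukin-4 is known to induce in macrophages.

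The libraries came from bone marrow-derived macrophages (BMDMs), grown from femoral marrow for 7 days in 50 ng/ml M-CSF. The mice were Prep-/- animals and their Prep+/- littermates on a C57BL6/J background. Prep encodes prolyl endopeptidase, a serine peptidase that cleaves short peptides after proline. Every control was heterozygous, with 1 intact allele, and no wild-type group was analysed here. The age of the marrow donors is not given in the sources used here. BMDMs of each genotype were left unstimulated (M0), given 50 ng/ml LPS (M1), or given 20 ng/ml IL-4 with 20 ng/ml IL-13 (M2), with 24 h of stimulation, and each of these 6 groups had 3 libraries.

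The 18 libraries held between 19068237 and 22598279 counts assigned to genes. Levels are in CPM, the counts of a gene scaled to library size, with each library size multiplied by its TMM normalization factor. Prep itself lay between 26.0 and 42.5 CPM in the Prep+/- libraries and between 1.48 and 3.22 CPM in the Prep-/- libraries. Its log2 fold changes were -4.29 in M0, -3.74 in M1 and -3.77 in M2. All 7 macrophage markers examined were expressed in every library, with a summed level of 8807 to 47137 CPM that differed between groups. Markers of red blood cells, B cells and dendritic cells summed to at most 0.185, 0.168 and 2.59 CPM, with 5 of 6, 2 of 4 and 5 of 5 markers in the table. The other marker lists reached more. Their highest sums were 13.7 CPM for adipocytes, 20.7 for stromal cells, 85.7 for neutrophils, 328 for endothelial cells, 372 for osteoclasts and 1471 CPM for megakaryocytes. Prep-/- M2 replicate 3 and Prep-/- M0 replicate 3 stood apart from their groups. They differed over 2-fold from the mean of the other libraries of their group in 10.4% and 7.55% of the genes tested, against 0.998% to 4.87% in the other 16 libraries. In bulk samples, fewer cells that express a gene and less RNA per cell cannot be told apart.

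The promoters of 3 genes are shown from 250 bases before to 50 bases after the annotated start (GRCm39 with GENCODE M39, strand of the gene). Fabp5 is shown as a fatty acid binding protein that was higher in Prep-/- cells after either stimulus, and Marco as the receptor that was lower in Prep-/- cells in every state. Olr1 is shown as the receptor called lower in Prep-/- cells in M1 and higher in M2, on few counts and with no direct test of M1 against M2. Capitals mark matches to TGANTCA (AP-1) or to AGGTCA (the nuclear receptor half-site), searched on both strands.
Fabp5, chr3:10077352-10077651, plus strand: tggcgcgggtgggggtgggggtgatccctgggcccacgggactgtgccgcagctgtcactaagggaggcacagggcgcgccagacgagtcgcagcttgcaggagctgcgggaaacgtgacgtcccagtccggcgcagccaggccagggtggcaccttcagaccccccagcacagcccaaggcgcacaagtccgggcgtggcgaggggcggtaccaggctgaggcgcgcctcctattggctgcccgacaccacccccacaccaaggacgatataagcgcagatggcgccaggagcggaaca
Marco, chr1:120432704-120433003, minus strand: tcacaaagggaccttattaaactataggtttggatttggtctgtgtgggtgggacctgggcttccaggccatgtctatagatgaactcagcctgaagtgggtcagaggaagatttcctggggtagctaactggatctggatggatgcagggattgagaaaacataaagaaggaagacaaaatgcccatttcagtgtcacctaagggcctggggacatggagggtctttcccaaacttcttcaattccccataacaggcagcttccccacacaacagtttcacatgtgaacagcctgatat
Olr1, chr6:129484079-129484378, minus strand: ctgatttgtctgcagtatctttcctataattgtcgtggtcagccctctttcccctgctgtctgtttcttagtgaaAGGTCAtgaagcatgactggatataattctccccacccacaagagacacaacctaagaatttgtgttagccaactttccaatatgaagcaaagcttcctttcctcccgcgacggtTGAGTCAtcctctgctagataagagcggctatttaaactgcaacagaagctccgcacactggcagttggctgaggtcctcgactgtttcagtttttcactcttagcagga
In the Olr1 promoter the AP-1 letters began at position -60 and AGGTCA at -175, counted from the start of transcription, and the Fabp5 and Marco promoters held neither. Of 21756 promoters of the same length, 7.15% held TGANTCA and 15.1% held AGGTCA. None of the 3 held GAGGAAGT (PU.1, in 3.08% of all promoters), the STAT6 motif (6.82%) or TGACNNNGC (the antioxidant response element, in 12.5%). A match describes these letters in this window only.

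All 10 genes are protein-coding, and their annotated bounds are as follows. Marco lies on chromosome 1 (120402267 to 120432753), Fabp5 and Fabp4 on chromosome 3 (10077602 to 10081674 and 10268785 to 10273737), and Plin2 on chromosome 4 (86565912 to 86588459). Cd36 and Scarb1 lie on chromosome 5 (17986432 to 18094067 and 125353547 to 125418176), and Olr1 on chromosome 6 (129462207 to 129484128). Msr1 and Lpl lie on chromosome 8 (40034726 to 40095714 and 69284603 to 69360100), and Stab1 on chromosome 14 (30860970 to 30890598). Marco and Plin2 overlap no other annotated gene. The other 8 overlap at least 1 non-coding gene, mostly on the opposite strand, and Stab1 also overlaps Nt5dc2. Whether the counting used strand is not stated, so reads of overlapping genes cannot be told apart. The Fabp5 transcript matches 5 processed pseudogenes at 93.6% to 98.3% identity over 336 to 409 bases, and Plin2 matches Gm12551 at 96.4% over 506 bases, so their counts are uncertain to the extent that reads were shared. The Lpl transcript shares stretches of 150 to 233 bases with many other transcripts.

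Per kilobase of transcript, which allows levels of different genes to be set side by side, Lpl had the highest mean level of the 10 genes in unstimulated Prep+/- BMDMs, at 621 CPM per kilobase. Plin2 followed at 384, Msr1 at 348, Cd36 at 238, Fabp5 at 173, Stab1 at 149, Scarb1 at 45.1, Marco at 29.8 and Fabp4 at 10.2 CPM per kilobase, with Olr1 at 0.0186. Marco headed the Prep+/- M1 cells at 2446 CPM per kilobase, whereas Fabp5 headed the Prep-/- M1 cells at 1334. In M2, Lpl headed the Prep+/- cells at 747 and Fabp5 the Prep-/- cells at 805 CPM per kilobase. All levels below are CPM, which compare a gene only with itself.

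**Figure D1:**
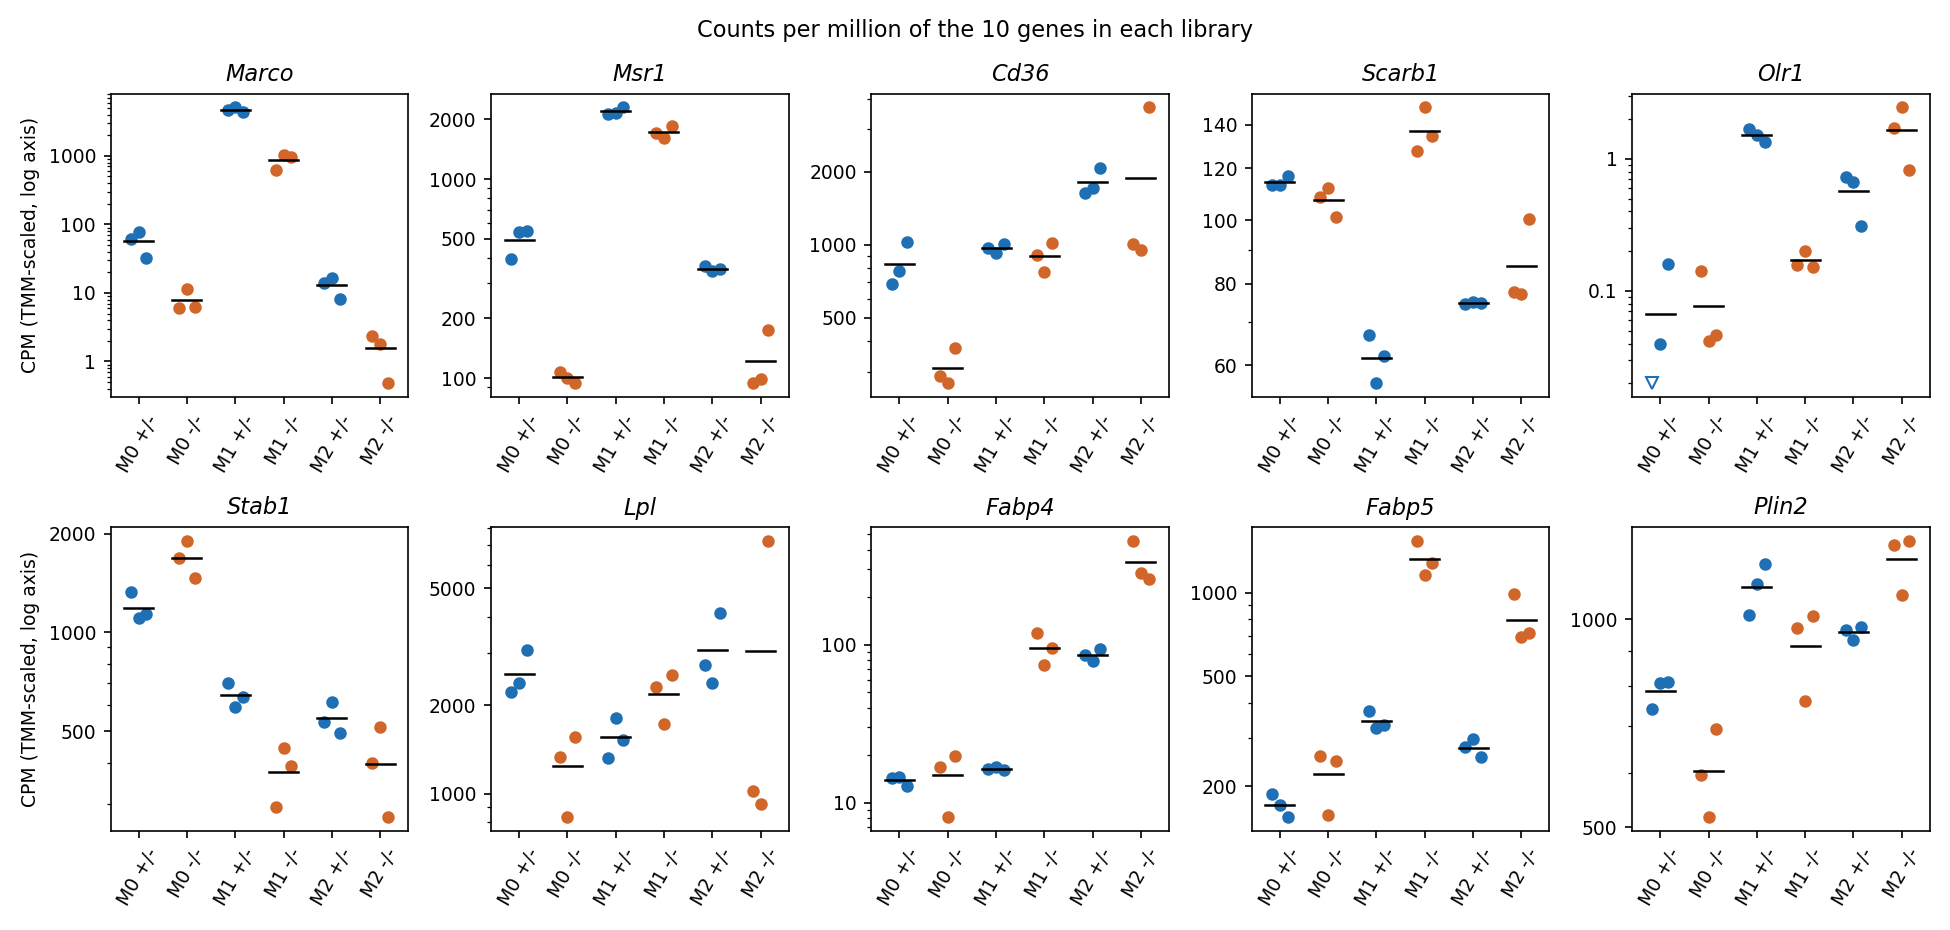
CPM on a log axis for each of the 10 genes, with 1 point per library (blue, Prep+/-; orange, Prep-/-) and a line at each group's mean of 3 libraries. The open triangle in the Olr1 panel stands for the library with 0 counts. Marco spans the widest range, and the high points of Cd36 and Lpl in Prep-/- M2 (3684 and 7239.9 CPM) belong to replicate 3.

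A gene was called where its adjusted p was under 0.05 and its fold change over 1.5. Adjusted p-values are from edgeR's quasi-likelihood test with Benjamini-Hochberg adjustment over all 12021 genes, and errors of log2 fold changes are standard errors. For the question of what loss of Prep changed, 3 of the 10 genes were called in M0, all lower in Prep-/- (Marco, Msr1 and Cd36), where 32.6% of all genes tested were called, 15.4% higher and 17.2% lower. That share is near the background and is no result about these genes as a group. In M1, 6 of the 10 were called against 22.5% of all genes (12.3% higher and 10.2% lower), with Fabp4, Fabp5 and Scarb1 higher and Marco, Olr1 and Stab1 lower. In M2, 5 of the 10 were called against 16.2% of all genes (6.37% higher and 9.82% lower), with Fabp4, Fabp5 and Olr1 higher and Marco and Msr1 lower, and 7 were called without Prep-/- M2 replicate 3. Over the 10 genes, the median absolute log2 fold change came to 0.44 for M0, 0.96 for M1 and 0.99 for M2, beside 0.43, 0.37 and 0.28 over all genes. The genes did not move one way, since their signed medians were -0.24, -0.20 and 0.12 in the same order, beside 0.02, 0.04 and 0.03 over all genes.

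**Figure D2:**
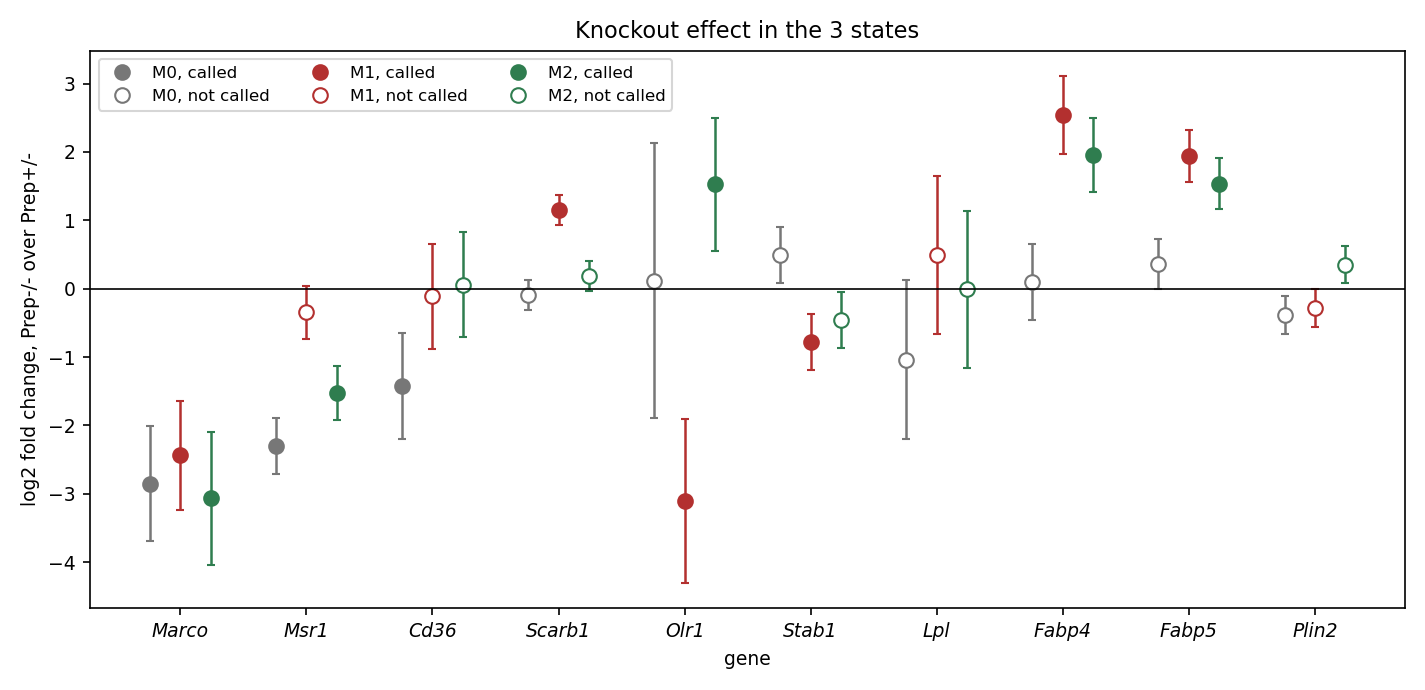
Log2 fold change of Prep-/- over Prep+/- BMDMs for each gene in M0 (grey), M1 (red) and M2 (green), with 95% confidence intervals and 3 libraries per group. Filled points were called. Marco is below 0 in all states, Fabp4 and Fabp5 are above 0 after stimulation, and Olr1 lies at -3.10 in M1 and 1.52 in M2.

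For polarization, 6 of the 10 genes were called between M1 and M0 in Prep+/- cells, 4 higher and 2 lower, against 37.7% of all genes (16.7% higher and 20.9% lower). In Prep-/- cells 7 were called, 6 higher and 1 lower, against 42.0% (20.9% higher and 21.0% lower). Between M2 and M0, 7 were called in Prep+/- cells, 4 higher and 3 lower, against 12.9% of all genes (6.09% higher and 6.77% lower). In Prep-/- cells 7 were also called, 5 higher and 2 lower, against 30.2% (14.7% higher and 15.5% lower). The knockout effect in M1 differed from that in M0 for 5 of the 10 genes, against 21.1% of all genes, and the effect in M2 from that in M0 for 4, against 8.66%. In M1 the difference was positive for Msr1, Scarb1, Fabp4 and Fabp5 (12.0% of all genes) and negative for Stab1 (9.15%), and in M2 it was positive for Fabp4, Fabp5 and Plin2 (4.53%) and negative for Stab1 (4.13%). The latter 4 calls became 2 on leaving out Prep+/- M0 replicate 2 or 3 or Prep+/- M2 replicate 1 or 2. Comparisons with M0 share the M0 libraries, so they are not independent of each other. Each value is given with its gene below.

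**Figure D3:**
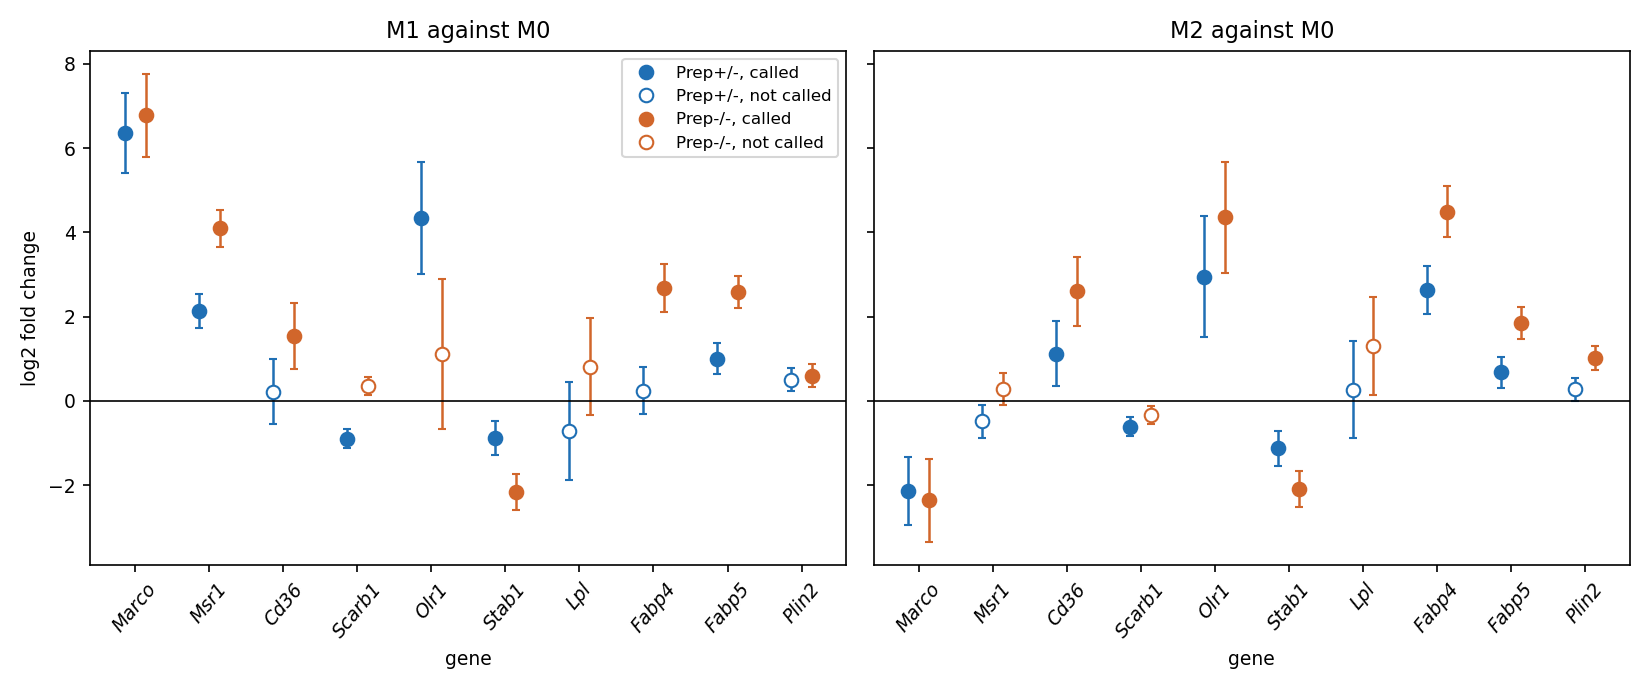
Log2 fold change against M0 in Prep+/- (blue) and Prep-/- (orange) BMDMs, for M1 on the left and M2 on the right, with 95% confidence intervals. Filled points were called. Among the pairs whose intervals do not overlap are Msr1 in M1 (2.14 and 4.09), Scarb1 in M1 (-0.89 and 0.35), Fabp4 in M1 (0.25 and 2.69) and Fabp4 in M2 (2.64 and 4.49).

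Marco, the macrophage receptor with collagenous structure that binds unopsonized bacteria and particles, was lower in Prep-/- cells in every state. In M0, the Prep+/- libraries held 61.4, 78.4 and 32.2 CPM and the Prep-/- libraries 5.98, 11.6 and 6.18 CPM. In M1 the values were 4613, 5109 and 4404 CPM against 623, 1025 and 955 CPM. In M2 they were 13.9, 16.7 and 8.29 CPM against 2.36, 1.80 and 0.479 CPM. The genotypes did not overlap in any state. Marco fell 7.23-fold with loss of Prep in M0 (log2 fold change -2.85 ± 0.40, adjusted p = 3.00e-05), 5.43-fold in M1 (-2.44 ± 0.37, adjusted p = 2.56e-04) and 8.39-fold in M2 (-3.07 ± 0.46, adjusted p = 1.67e-04). The difference of the knockout effect from M0 was 0.41 (95% interval -0.68 to 1.51) for M1 and -0.22 (-1.46 to 1.02) for M2, neither past the threshold. LPS raised Marco 82.1-fold in Prep+/- cells and 109-fold in Prep-/- cells, and IL-4 with IL-13 lowered it 4.42-fold and 5.14-fold. From the highest to the lowest group mean Marco spanned 3043-fold, the widest span of the 10 genes, and of the neighbours in that order only Prep+/- M2 and Prep-/- M0 cells overlapped.

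Msr1, the class A receptor first defined by uptake of acetylated lipoprotein, was lower in Prep-/- cells in M0 and M2. In M0, the Prep+/- libraries held 395, 543 and 549 CPM and the Prep-/- libraries 107, 100.5 and 94.8 CPM. In M1 the values were 2111, 2158 and 2292 CPM against 1703, 1611 and 1848 CPM. In M2 they were 364, 347 and 351 CPM against 94.1, 99.5 and 174 CPM, the last from the library that stood apart. The genotypes did not overlap in any state, although the M1 groups lay close together. Msr1 fell 4.92-fold in M0 (log2 fold change -2.30 ± 0.19, adjusted p = 4.70e-07) and 2.89-fold in M2 (-1.53 ± 0.19, adjusted p = 4.02e-05), while the M1 difference was -0.35 (95% interval -0.73 to 0.04, adjusted p = 0.148). The knockout effect was therefore smaller in M1 than in M0, by 1.95 ± 0.26 on the log2 scale (adjusted p = 1.06e-04), and the M2 effect differed from M0 by 0.77 ± 0.26 (adjusted p = 0.0721). The latter was 0.44 without Prep-/- M2 replicate 3, and it was called without Prep+/- M0 replicate 1, Prep-/- M2 replicate 1 or Prep-/- M2 replicate 2 (adjusted p = 0.0292 to 0.0354, range over alternatives 0.0271 to 0.732). LPS raised Msr1 4.41-fold in Prep+/- and 17.1-fold in Prep-/- cells. IL-4 with IL-13 gave no called change in either genotype, at -0.49 (adjusted p = 0.0782) in Prep+/- and 0.28 (adjusted p = 0.230) in Prep-/- cells, and the latter was -0.07 without Prep-/- M2 replicate 3. The Prep+/- change was called without Prep+/- M0 replicate 1 (-0.64, adjusted p = 0.0294).

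Cd36, the class B receptor for oxidized lipoprotein and long-chain fatty acids, was lower in Prep-/- cells in M0. The M0 values were 692, 779.6 and 1027 CPM in Prep+/- and 288, 268 and 374 CPM in Prep-/- libraries. In M1 they were 970.3, 928 and 1009.9 CPM against 911, 772 and 1012 CPM. The M2 values were 1632, 1719.6 and 2070.3 CPM against 1009.7, 950.2 and 3684 CPM. The genotypes were apart in M0 and overlapped in M1, and in M2 the Prep-/- libraries fell on both sides of the Prep+/- libraries. Cd36 fell 2.68-fold in M0 (log2 fold change -1.42 ± 0.37, adjusted p = 0.00462), whereas the M1 difference was -0.11 (95% interval -0.88 to 0.66) and the M2 difference 0.06 (-0.71 to 0.82). Without Prep-/- M2 replicate 3, the M2 difference was -0.87 (adjusted p = 0.00183, range over alternatives 0.00183 to 1). The knockout effect differed from M0 by 1.31 ± 0.51 in M1 (adjusted p = 0.0723) and 1.48 ± 0.51 in M2 (adjusted p = 0.0791). The M2 difference was 0.55 without Prep-/- M2 replicate 3, and it was called without Prep-/- M2 replicate 1 or 2 (1.77 and 1.79, adjusted p = 0.0299 and 0.0187, range over alternatives 0.0187 to 0.353). LPS raised Cd36 2.90-fold in Prep-/- cells (adjusted p = 0.00209), with 1.16-fold in Prep+/- cells (adjusted p = 0.635). IL-4 with IL-13 raised it 2.17-fold in Prep+/- cells (adjusted p = 0.0429) and 6.06-fold in Prep-/- cells (adjusted p = 4.69e-05), and without that library the latter rise was 1.64 on the log2 scale. The Prep+/- call was lost under 7 of 15 alternatives, on leaving out any of the 6 Prep+/- libraries compared among them (adjusted p = 0.0567 to 0.138).

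Scarb1, the receptor for high-density lipoprotein, differed between genotypes in M1. In M0 its values were 113, 113 and 117 CPM in Prep+/- and 109, 112 and 101 CPM in Prep-/- libraries. In M1 they were 66.7, 56.3 and 61.9 CPM against 127, 149 and 135 CPM. Those of M2 were 74.5, 74.9 and 74.8 CPM against 77.6, 77.2 and 100.5 CPM. No groups overlapped, but only in M1 did the genotypes lie far apart. Scarb1 rose 2.22-fold with loss of Prep in M1 (log2 fold change 1.15 ± 0.11, adjusted p = 5.26e-06), with -0.09 (95% interval -0.31 to 0.13) in M0 and 0.19 (-0.03 to 0.41) in M2. The effect in M1 exceeded that in M0 by 1.24 ± 0.15 (adjusted p = 4.55e-05), the difference with the smallest adjusted p among the 10 genes. LPS lowered Scarb1 1.86-fold in Prep+/- cells (adjusted p = 2.56e-06), whereas in Prep-/- cells the change was 1.28-fold upward, which passed the adjusted p (0.00875) but not the fold threshold. IL-4 with IL-13 lowered it 1.53-fold in Prep+/- cells (adjusted p = 4.93e-04), a call lost only with glmTreat, and in Prep-/- cells the change was 1.26-fold downward, under the fold threshold.

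Olr1, the least abundant of the 10 genes, was lower in Prep-/- cells in M1 and higher in M2. In M0 the Prep+/- libraries held 0, 1 and 4 counts and the Prep-/- libraries 3, 1 and 1, a sum of 5 in each group, so no fold is given. In M1 they were 31, 27 and 22 against 3, 4 and 3. The M2 counts were 17, 16 and 7 against 34, 49 and 17. The genotypes did not overlap in M1 or, in CPM, in M2, and every group held at most 100 counts in all. By summed counts, the Prep-/- cells were 8.89-fold lower in M1 (95% interval 4.59 to 19.2, exact, counting error only) and 2.87-fold higher in M2 (1.97 to 4.25). The tests gave log2 fold changes of -3.10 ± 0.56 (adjusted p = 7.96e-04) and 1.52 ± 0.46 (adjusted p = 0.0226), and 6 of 15 alternatives lost the M2 call, 4 of them by leaving out Prep+/- M2 replicate 2 or 3 or Prep-/- M2 replicate 1 or 2 (adjusted p = 0.0530 to 0.116). The difference of the knockout effect from M0 did not pass, at -3.22 ± 1.21 for M1 (adjusted p = 0.0612) and 1.41 ± 1.13 for M2 (adjusted p = 0.466), although the former was called without Prep+/- M0 replicate 3 (-4.69, adjusted p = 0.0244). LPS raised Olr1 in Prep+/- cells (80 against 5 summed counts, adjusted p = 2.08e-05), while in Prep-/- cells the sums were 10 against 5 (adjusted p = 0.269). IL-4 with IL-13 raised it in both genotypes (40 and 100 against 5, adjusted p = 0.00530 and 3.30e-05).

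Stab1 was lower after either stimulus in both genotypes, and by more in Prep-/- cells. In M0 the values were 1324, 1107 and 1139 CPM in Prep+/- and 1680.0, 1901 and 1460.0 CPM in Prep-/- libraries. In M1 they were 704, 595 and 637 CPM against 294, 445 and 392 CPM. For M2 the values were 533, 615 and 493 CPM against 402, 514 and 274 CPM. The Prep-/- libraries were all above the Prep+/- libraries in M0 and all below them in M1, and the groups overlapped in M2. Stab1 fell 1.71-fold with loss of Prep in M1 (log2 fold change -0.78 ± 0.19, adjusted p = 0.00616), whereas in M0 it was 1.41-fold higher (adjusted p = 0.0428), under the fold threshold, and in M2 -0.46 ± 0.19 (adjusted p = 0.0912). The M0 difference was called without Prep+/- M0 replicate 1 (0.59, adjusted p = 0.0418), and the M2 difference was called without Prep-/- M2 replicate 2 (-0.68, adjusted p = 0.0217) and was -0.25 without Prep-/- M2 replicate 3. The effect differed from that in M0 by -1.27 ± 0.27 in M1 (adjusted p = 0.00365) and by -0.96 ± 0.27 in M2 (adjusted p = 0.0367), and 10 of 21 alternatives lost the latter call, 8 of them by leaving out a library (adjusted p = 0.0517 to 0.0955), with -0.74 without Prep-/- M2 replicate 3. LPS lowered Stab1 1.84-fold in Prep+/- and 4.46-fold in Prep-/- cells, and IL-4 with IL-13 lowered it 2.18-fold and 4.24-fold.

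Lpl gave no called difference in any comparison, and its replicates differed by up to 7.88-fold within a group. In M0 the values were 2222, 2373 and 3075 CPM in Prep+/- and 1336, 834 and 1555 CPM in Prep-/- libraries. In M1 they were 1326, 1808 and 1528 CPM against 2310.0, 1721 and 2525 CPM. In M2 they were 2730.0, 2384 and 4113 CPM against 1023, 919 and 7239.9 CPM. The Prep-/- libraries were all below the Prep+/- libraries in M0, overlapped them in M1, and in M2 lay below them in replicates 1 and 2 and above them in replicate 3. The log2 fold changes were -1.04 (95% interval -2.20 to 0.12, adjusted p = 0.128) in M0, 0.49 (-0.66 to 1.64) in M1 and -0.01 (-1.16 to 1.14, adjusted p = 0.997) in M2. Without Prep-/- M2 replicate 3 the M2 value was -1.65 ± 0.28 (adjusted p = 3.59e-04, range over alternatives 3.59e-04 to 1). In Prep-/- cells, M2 against M0 gave 2.47-fold (adjusted p = 0.0663), and a log2 fold change of -0.37 (adjusted p = 0.304) without that library. Leaving out Prep-/- M2 replicate 1 or 2 instead made it a call, at 1.68 and 1.70 (adjusted p = 0.0171 and 0.0118). Prep+/- cells gave 0.27 (adjusted p = 0.782). M1 against M0 gave -0.72 in Prep+/- (adjusted p = 0.284) and 0.82 in Prep-/- cells (adjusted p = 0.215). When the 6 Prep-/- libraries of M0 and M1, whose same-numbered libraries deviated together, were fitted with a block for that number, the latter was called at 0.81 (adjusted p = 0.00338, range over alternatives 0.00338 to 0.504). The same 6 libraries without the block gave 0.77 (adjusted p = 0.0360).

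**Figure D4:**
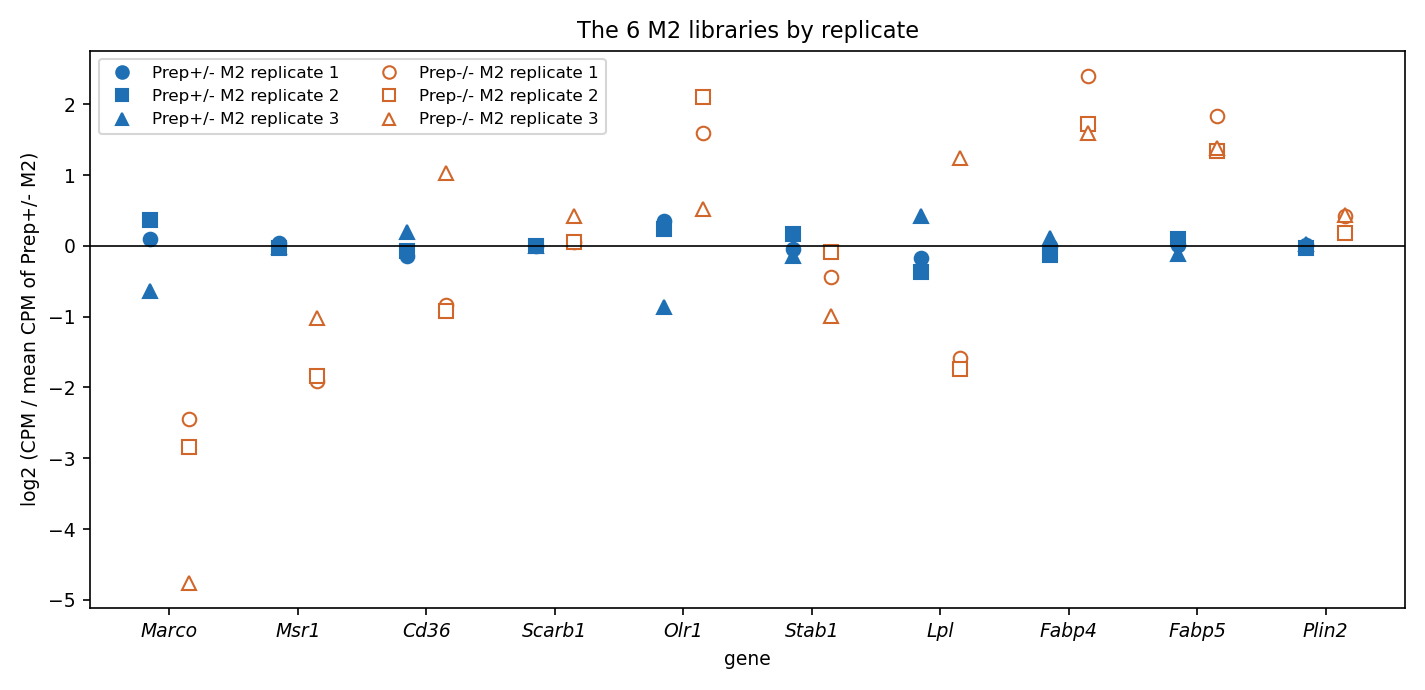
Log2 of each M2 library's CPM over the mean CPM of the 3 Prep+/- M2 libraries, per gene, with a marker shape for each replicate (filled blue, Prep+/-; open orange, Prep-/-). Prep-/- replicate 3 (open triangles) is above the Prep+/- libraries for Cd36 and Lpl, where Prep-/- replicates 1 and 2 are below them, and it is the lowest for Marco.

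Prep-/- M2 replicate 3 held 7.46 times the mean Lpl level of the other Prep-/- M2 libraries and 3.76 times their Cd36 level, with 0.230 times their Marco level. In the same library Dcstamp and Ocstamp, which encode membrane proteins needed for cell fusion in osteoclasts and giant cells, reached 183 and 124 CPM, against 16.8 and 11.5 CPM and 7.09 and 4.50 CPM in Prep-/- M2 replicates 1 and 2. In Prep+/- M2 cells replicate 3 was also the highest for both, at 30.7 and 30.9 CPM. The 6 osteoclast markers, Dcstamp and Ocstamp among them, summed to 74.8 to 372 CPM in Prep-/- M2 cells and to 44.2 to 94.3 CPM in Prep+/- M2 cells. The other markers did not set replicate 3 far apart. In Prep-/- M2 replicates 1, 2 and 3, Ctsk held 49.1, 44.7 and 45.8 CPM and Acp5 17.2, 14.0 and 19.1 CPM. Calcr was at 0 in 16 of 18 libraries and Oscar at most at 0.104 CPM. The part of these transcripts in the Lpl and Cd36 values was not tested.

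Fabp4, the fatty acid binding protein of adipocytes and macrophages also called aP2, was higher in Prep-/- cells after either stimulus. In M0 it held 14.3, 14.4 and 12.8 CPM in Prep+/- and 16.8, 8.12 and 19.7 CPM in Prep-/- libraries. In M1 the values were 16.4, 16.7 and 16.1 CPM against 118, 74.1 and 94.9 CPM. In M2 they were 86.4, 78.9 and 93.5 CPM against 454, 285 and 261 CPM. The genotypes overlapped in M0 and were far apart in M1 and M2. Fabp4 rose 5.83-fold with loss of Prep in M1 (log2 fold change 2.54 ± 0.27, adjusted p = 1.49e-05) and 3.87-fold in M2 (1.95 ± 0.26, adjusted p = 6.30e-05), against 0.10 (95% interval -0.45 to 0.66) in M0. The effect exceeded that in M0 by 2.44 ± 0.37 in M1 (adjusted p = 2.88e-04) and by 1.85 ± 0.36 in M2 (adjusted p = 0.00611). LPS raised Fabp4 6.44-fold in Prep-/- cells (adjusted p = 3.86e-07), with 1.19-fold in Prep+/- cells (adjusted p = 0.454). IL-4 with IL-13 raised it 6.23-fold and 22.4-fold in Prep+/- and Prep-/- cells. Prep-/- M2 cells had the highest level of the 6 groups, while Prep-/- M1 and Prep+/- M2 cells overlapped.

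Fabp5, the epidermal fatty acid binding protein, was also higher in Prep-/- cells after either stimulus. In M0 it held 188, 172 and 155 CPM in Prep+/- and 257, 158 and 248 CPM in Prep-/- libraries. In M1 the values were 374, 326 and 333 CPM against 1537, 1162 and 1276 CPM. The M2 values were 277, 295 and 255 CPM against 987, 694 and 717 CPM. The genotypes overlapped in M0 and were apart in M1 and M2. Fabp5 rose 3.85-fold with loss of Prep in M1 (log2 fold change 1.94 ± 0.18, adjusted p = 5.26e-06) and 2.90-fold in M2 (1.54 ± 0.18, adjusted p = 2.40e-05), against 0.36 (95% interval -0.01 to 0.73) in M0. The effect exceeded that in M0 by 1.58 ± 0.25 in M1 (adjusted p = 3.68e-04) and by 1.17 ± 0.25 in M2 (adjusted p = 0.00873). LPS raised it 2.01-fold in Prep+/- and 5.998-fold in Prep-/- cells, and IL-4 with IL-13 raised it 1.61-fold and 3.62-fold. The 1.61-fold call was lost without Prep+/- M0 replicate 3 (adjusted p = 0.0567, range over alternatives 3.00e-06 to 0.843). The order of the stimulated Prep-/- groups differed from that of Fabp4, with Fabp5 highest in M1 and Fabp4 highest in M2.

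Markers of fat and endothelial cells, which also express Fabp4 and Cd36, moved with the groups. Of 6 adipocyte markers, 4 were in the table, and their sum was 5.75 to 13.7 CPM in Prep-/- M2 cells and at most 0.895 CPM elsewhere. Nearly all of it was Adipoq, while Plin1, Cidec and Adig did not exceed 0.144 CPM in any library. In Prep-/- M1 cells, where Fabp4 also rose, the sum was at most 0.0520 CPM. Of 6 endothelial markers 5 were in the table, and they summed to 23.8 to 45.5 CPM in Prep-/- M1 and 13.3 to 17.2 CPM in Prep+/- M1 cells, with no overlap. Kdr reached 26.2 CPM in Prep-/- M1 replicate 1. Vwf went with the sum, at 18.3, 13.2 and 11.5 CPM in Prep-/- M1 and 6.78, 4.33 and 4.36 CPM in Prep+/- M1 libraries. Cdh5 went the other way, at 0.987, 0.504 and 0.916 CPM in Prep-/- M1 and 1.29, 1.80 and 1.70 CPM in Prep+/- M1 libraries. In M2 they summed to 248 to 328 CPM in Prep-/- and 107 to 155 CPM in Prep+/- cells, of which Vwf made up 247 to 326 and 104 to 152 CPM. Over all 18 libraries, Cdh5 was at most at 1.80, Tek at 0.102 and Cldn5 at 0.0401 CPM, none of these highest values in M2. The part of these transcripts in the Fabp4 values was not tested.

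Plin2, the perilipin that coats lipid droplets in most cells, had the narrowest span of the 10 genes, 2.02-fold between the highest and the lowest group mean. In M0 it held 743, 808 and 811 CPM in Prep+/- and 596, 518 and 694 CPM in Prep-/- libraries. In M1 the values were 1013, 1123 and 1199 CPM against 970.1, 761 and 1010.3 CPM. Those of M2 were 963, 933 and 974 CPM against 1279, 1082 and 1297 CPM. The Prep-/- libraries were all below the Prep+/- libraries in M0 and M1 and all above them in M2. The genotype was called in no state, with log2 fold changes of -0.39 ± 0.13 in M0 (adjusted p = 0.0209, under the fold threshold), -0.28 ± 0.13 in M1 (adjusted p = 0.0967) and 0.35 ± 0.13 in M2 (adjusted p = 0.0574). The effect in M2 exceeded that in M0 by 0.74 ± 0.18 (adjusted p = 0.0195), a call that 5 of 21 alternatives lost, 4 of them by leaving out Prep+/- M0 replicate 2 or 3 or Prep+/- M2 replicate 1 or 2 (adjusted p = 0.0540 to 0.0587). IL-4 with IL-13 raised Plin2 2.02-fold in Prep-/- cells (adjusted p = 1.08e-05), with 1.21-fold in Prep+/- cells (adjusted p = 0.152). The knockout effect in M1 differed from that in M0 by 0.10 ± 0.18 (adjusted p = 0.703). With LPS, Plin2 rose 1.41-fold in Prep+/- cells (adjusted p = 0.00391), under the fold threshold. In Prep-/- cells LPS raised it 1.52-fold (adjusted p = 8.28e-04), close to the fold threshold. That call was lost under 8 of 15 alternatives, among them the replicate block in the 6 libraries compared (log2 fold change 0.56) and leaving out Prep-/- M0 replicate 2, Prep-/- M1 replicate 1 or Prep-/- M1 replicate 3 (0.46 to 0.51).

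Pparg, which encodes PPARγ, was examined as a transcription factor known to act on Fabp4, Cd36 and Plin2. In M0 it held 14.9, 19.7 and 20.7 CPM in Prep+/- and 17.4, 12.97 and 11.4 CPM in Prep-/- libraries. In M1 the values were 2.53, 2.92 and 2.24 CPM against 8.16, 5.24 and 6.11 CPM. The M2 libraries held 69.6, 74.7 and 81.4 CPM against 129, 105 and 139 CPM. The genotypes overlapped in M0 and were apart in M1 and M2. Pparg rose with loss of Prep by 1.34 ± 0.22 on the log2 scale in M1 (adjusted p = 3.67e-04) and by 0.73 ± 0.17 in M2 (adjusted p = 0.00514), with -0.40 ± 0.18 in M0 (adjusted p = 0.0709). LPS lowered it in both genotypes, by a log2 fold change of -2.84 in Prep+/- and -1.10 in Prep-/- cells. In Prep-/- cells Fabp4 rose with LPS while Pparg fell, and in M1 and M2 both were higher in Prep-/- than in Prep+/- cells. The part of Pparg in the values of Fabp4, Cd36 and Plin2 was not tested.

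Of 63 further genes of lipoprotein and fatty acid handling, 60 were in the table and 52 were tested. With loss of Prep, 21 of them were called in M0 (40.4%, against 32.6% of all genes), of which 10 rose and 11 fell. In M1 it was 28.8%, against 22.5% of all genes, of which 9 rose and 6 fell, and in M2 13.5%, against 16.2%, of which 4 rose and 3 fell. The medians of their log2 fold changes were -0.07, 0.10 and 0.19. Among 12 other scavenger and lipoprotein receptors tested, Stab2, the stabilin that clears hyaluronan, rose by 1.85 ± 0.35 in M0 (adjusted p = 3.84e-04), 1.71 ± 0.55 in M1 (adjusted p = 0.0242) and 1.57 ± 0.32 in M2 (adjusted p = 0.00174). Its level was at most 3.10 CPM in any Prep+/- library. The M1 value rests on few counts, 10 in all in Prep+/- and 37 in Prep-/- cells. Lrp1, the large endocytic receptor for remnant lipoproteins, fell by 1.34 in M0 (adjusted p = 6.36e-06) and fell by 0.61 in M2 (adjusted p = 0.00824). It was not called in M1, at a mean of 874 CPM in Prep+/- and 655 CPM in Prep-/- cells. Lrp8, the apolipoprotein E receptor, fell in M0 (log2 fold change -2.67 ± 0.24, adjusted p = 7.15e-07) and in M2 (-0.93 ± 0.22, adjusted p = 0.00570), and rose in M1 (0.68 ± 0.22, adjusted p = 0.0217). Cxcl16, a chemokine that is also the scavenger receptor SR-PSOX, rose by 1.22 ± 0.24 in M0 (adjusted p = 5.06e-04) and by 1.42 ± 0.24 in M2 (adjusted p = 5.09e-04). In M1 it was not called, at a mean of 432 CPM in Prep+/- and 426 CPM in Prep-/- cells.

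Of the 10 genes of fatty acid transport, binding and activation, 0 were called higher and 6 lower in M0 (15.4% and 17.2% of all genes), 2 and 2 in M1 (12.3% and 10.2%), and 0 and 1 in M2 (6.37% and 9.82%). Fabp7, the fatty acid binding protein known from the brain, fell by 2.83 on the log2 scale in M0 (adjusted p = 3.36e-07) and fell by 3.27 in M2 (adjusted p = 9.59e-07), with -0.38 ± 0.18 in M1 (adjusted p = 0.109). Its libraries held 9.66 to 12.9 CPM in Prep+/- and 1.04 to 2.03 CPM in Prep-/- M0 cells. Acsl1, the acyl-CoA synthetase that activates long-chain fatty acids, rose by 1.54 ± 0.30 in M1 (adjusted p = 0.00120), and Lipa, the lysosomal acid lipase, by 1.22 ± 0.21 (adjusted p = 5.64e-04). In M1 the Lipa libraries held 240.4 to 297 CPM in Prep+/- and 527 to 752 CPM in Prep-/- cells. Soat1, which esterifies cholesterol for storage, rose by 0.68 ± 0.11 in M2 (adjusted p = 2.29e-04).

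Over the 18 libraries, the genes whose log2 CPM followed each of the 10 most closely were found by Pearson's r, as a description, since libraries of a group share their condition. Arhgap4 (0.975) and Trem3 (0.974) were nearest to Marco, and Plpp1 (0.972) and Praf2 (0.971) to Msr1. Rars (0.962) and Ttc7b (0.950) were nearest to Cd36, and Fads2 (0.904) and Cask (0.878) to Scarb1. For Olr1 they were Capzb (0.905) and Cdc42se2 (0.897), and for Stab1 Igfbp4 (0.959) and Tnfsf14 (0.945). For Lpl they were Nes (0.887) and Pacc1 (0.841), for Fabp4 Cipc (0.950) and Cd84 (0.947), for Fabp5 Mtm1 (0.953) and Sowahc (0.950), and for Plin2 Rhov (0.935) and Psma4 (0.922). None of the 10 was among the nearest 2 of another. Between the 10 genes themselves, r was highest for Marco with Msr1 (0.931), followed by Cd36 with Plin2 (0.785), Olr1 with Plin2 (0.776) and Fabp4 with Fabp5 (0.744).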

How the data were processed

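Bulk RNA-seq measured mRNA in 18 libraries, 3 for each genotype and state given by the sample labels. The authors deposited whole-number counts per gene with no normalization, made by trimming (Trimmomatic 0.36), alignment to GRCm39 (HISAT2 2.2.1.0) and StringTie. The annotation release, the strand setting and the treatment of reads with several matches are not given in the sources used here. All 18 columns matched a sample, and 0 were left unmatched.

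From the counts, genes were filtered with filterByExpr on the 6 groups (12021 of 16314 kept), scaled by TMM (factors 0.818 to 1.20) and tested with edgeR 4.0.16 (quasi-likelihood, R 4.3.3) in 1 fit of all libraries, with a common biological coefficient of variation of 0.167 and prior degrees of freedom of 4.47. Benjamini-Hochberg adjustment ran over all genes tested. Thresholds were an adjusted p of 0.05 and a fold change of 1.5, as in the study, which used DESeq2. Depth was 19068237 to 22598279 counts, and intervals from counts cover counting error only. The study calls the replicates biological, but the labels do not tie them to animals, so p-values measure the spread between these samples. The alternatives were DESeq2 1.42.0, RLE size factors, no filter or a stricter one (1 CPM in 3 libraries, 11449 genes), only the libraries compared, adjusted p alone, glmTreat, the replicate number as a block, and leaving out each library. The script was tested on simulated counts. The members and lists were chosen with earlier results of these data known.

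Same-numbered libraries deviated together (all 3 correlations over 0.1) for Prep-/- with Prep+/- in M2 (0.249, 0.255 and 0.462) and for M1 with M0 in Prep-/- (0.201, 0.169 and 0.259), and in none of the other 5 comparisons of 2 groups. The labels do not say what a number marks. Besides the 10 genes, the genes named are Prep, Pparg and, for each role of the pathway list, up to 2 that rose most and up to 2 that fell most among genes called with no overlap of libraries and averaging 1 CPM or more, and the 2 nearest genes by correlation of log2 CPM (prior count 2). Positions and promoters are from GRCm39 with GENCODE M39, which may not be the authors' release, and copies were searched with blastn 2.17.0. Markers were fixed lists for macrophages, adipocytes, endothelial and stromal cells, osteoclasts, megakaryocytes, erythroid cells, neutrophils, dendritic cells and B cells. Some items of these lists and some promoter sequences are not reported here.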

Additional observations from a re-analysis of the deposited data

Results flagged for a closer look

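In 9 cases the knockout effect in a stimulated state differed from that in M0 by a test of the difference itself (edgeR's quasi-likelihood interaction contrast, adjusted over 12021 genes, 3 libraries per group). In M1 the difference on the log2 scale was 2.44 for Fabp4 (adjusted p = 2.88e-04), 1.95 for Msr1 (adjusted p = 1.06e-04), 1.58 for Fabp5 (adjusted p = 3.68e-04), 1.24 for Scarb1 (adjusted p = 4.55e-05) and -1.27 for Stab1 (adjusted p = 0.00365). Each of these 5 calls held under all 21 alternatives. In M2 the difference was 1.85 for Fabp4 (adjusted p = 0.00611), 1.17 for Fabp5 (adjusted p = 0.00873), 0.74 for Plin2 (adjusted p = 0.0195) and -0.96 for Stab1 (adjusted p = 0.0367). These M2 calls were less stable. Of 21 alternatives, 10 lost the call of Stab1, 5 that of Plin2, and 1 each those of Fabp4 and Fabp5. Stab1 moved from 1.41-fold higher in Prep-/- cells in M0, under the fold threshold but called without Prep+/- M0 replicate 1 (0.59 on the log2 scale), to 1.71-fold lower in M1. The genotype difference of Msr1 in M0 was -2.30 and that in M1 -0.35, while that of Scarb1 was -0.09 in M0 and 1.15 in M1. All the M1 and M2 differences rest on the same M0 libraries.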

How the results depend on the processing

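Over the 90 member results and their 1464 alternative values, 1366 kept their direction and their side of the thresholds, 43 lost a call, 33 gained one and 22 changed sign. With adjusted p alone, 5 members were called between genotypes in M0 (3 with both criteria). With glmTreat, which tests against a 1.5-fold change, 4 were called between M2 and M0 in Prep+/- cells (7) and 0 for the difference of the knockout effect in M2 from that in M0 (4). With only the libraries compared, 8 were called for the difference in M1 (5). Leaving out a library gave 2 to 6 calls for the difference in M2, and 2 without Prep+/- M0 replicate 2, Prep+/- M0 replicate 3, Prep+/- M2 replicate 1 or Prep+/- M2 replicate 2. The cause was not tested, except that glmTreat asks for more by its construction.

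With the replicate block, the number of members called stayed within 1.5 times in all 9 comparisons. The Cd36 difference between genotypes in M2 became -0.11 over all 18 libraries and -0.25 over the 6 compared, and over those compared Lpl was also called between genotypes in M0 at -1.08. Beside the values given with the genes, Lpl between M1 and M0 in Prep+/- cells (-0.70) was called in a fit with the block. So were Cd36 and Lpl for the difference in M1 (1.27 and 1.49). The numbers are not shown to pair the libraries of these comparisons. Cd36 and Lpl were also called for the difference in M1 without the block, when only the libraries compared were fitted.

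On leaving out a library, 11 results changed sign, none of them called with all libraries. Between genotypes in M2, Cd36 ranged from -0.87 to 0.37 and Lpl from -1.65 to 0.42. Between genotypes in M0, Olr1 ranged from -0.58 to 1.57 and Fabp4 from -0.17 to 0.40. Between M2 and M0, Lpl in Prep+/- cells ranged from -0.0229 to 0.42, and in Prep-/- cells Msr1 ranged from -0.0698 to 0.41 and Lpl from -0.37 to 1.70. For the difference of the knockout effect, Marco in M2 ranged from -0.67 to 0.23, Olr1 in M2 from -0.0695 to 2.11, Lpl in M2 from -0.61 to 1.45 and Plin2 in M1 from -0.00933 to 0.22. With 3 libraries per group, the intervals of Lpl span over 2 units on the log2 scale, and Olr1 counts limit its values.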

Other observations

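The further genes of lipoprotein and fatty acid handling were also compared between states. Between M1 and M0, 15 of the 52 tested were called higher and 13 lower in Prep+/- cells, and 17 higher and 14 lower in Prep-/- cells, that is 53.8% and 59.6%, against 37.7% and 42.0% of all genes. Acsl1 rose by 2.64 ± 0.31 and 4.61 ± 0.34 on the log2 scale in Prep+/- and Prep-/- cells (adjusted p = 2.55e-06 and 1.52e-08), and Fabp7 by 2.11 ± 0.19 and 4.57 ± 0.23 (adjusted p = 1.11e-07 and 1.84e-10). The Fabp7 effect of the knockout in M1 exceeded that in M0 by 2.45 ± 0.29 (adjusted p = 3.72e-05), and that of Acsl1 by 1.98 ± 0.42 (adjusted p = 0.00362). Nr1h3, which encodes the oxysterol receptor LXRα, rose by 3.14 in both genotypes.

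Between M2 and M0, 9 of the 52 were called higher and 5 lower in Prep+/- cells, and 18 higher and 10 lower in Prep-/- cells, that is 26.9% and 53.8%, against 12.9% and 30.2% of all genes. Pparg rose by 2.03 ± 0.18 in Prep+/- and 3.16 ± 0.19 in Prep-/- cells (adjusted p = 4.82e-07 and 1.86e-09), and Cxcl16 fell by 2.36 and by 2.16 (adjusted p = 3.69e-06 and 2.86e-06). In Prep-/- cells Abhd5, the activator of the main triglyceride lipase, rose by 1.25 ± 0.11 (adjusted p = 1.57e-07) and Fabp3 by 1.67 ± 0.24 (adjusted p = 3.92e-05). Stromal markers summed to 0.256 to 20.7 CPM, neutrophil markers to 9.63 to 85.7 CPM, and megakaryocyte markers, nearly all Pf4, to 134 to 1471 CPM. Megakaryocyte markers summed to 856 to 1471 CPM in Prep+/- M1 and 264 to 383 CPM in Prep-/- M1 cells. Neutrophil markers summed to 47.6 to 85.7 against 26.3 to 35.2 CPM in M1, and to 13.5 to 18.2 against 26.6 to 63.0 CPM in M0, Prep+/- first. Over all libraries S100a8, Ltf and Camp reached 65.4, 28.8 and 8.99 CPM, whereas Ly6g, Elane and Mpo did not exceed 0.142, 0.410 and 1.09 CPM. None of these sums was tested.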
